A study of Oryza sativa Japonica Group with 6 samples.

Results

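Expansins and the related expansin-like proteins were followed in plants of Japonica rice (Oryza sativa), 1 month of age, in which the splicing factor gene OsSKIPa was overexpressed or suppressed. Members were all probe sets of the Affymetrix rice array whose single gene carries a symbol or synonym of the form EXPA, EXPB, EXLA or EXLB followed by digits. This gave 29 genes out of 17905 that have a probe set of their own, and 33 probe sets out of 57258 other than controls. The gene table lists 49 genes with such names, so 20 of them had no probe set under the rule. The subfamilies were represented by 16 probe sets of 14 alpha-expansin genes (EXPA), 12 probe sets of 11 beta-expansin genes (EXPB) and 5 probe sets of 4 expansin-like A genes (EXLA). The expansin-like B gene EXLB1 was not analysed here.

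The overexpression plants were of line S58S, selected on 50 mM hygromycin, and the suppression plants of line S59R, selected on 50 mM G418, as the labels give the doses. The wild type was the cultivar Zhonghua11, for which no selection drug is given. All seedlings were moved to hydroponics at 10 days and harvested at 1 month. Each group had 2 arrays, the suppression arrays being replicates 1 and 3, and so few arrays bound how precise any value here can be. Each construct is represented by a single named line, the sources used here do not give its promoter, and line, drug and OsSKIPa level cannot be told apart. Nothing in the labels ties the wild-type samples to separate cultures, so p-values measure only the spread between these samples, which may be partly technical. No probe set carried the name of OsSKIPa in the tables used, and its level was not analysed here.

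Expansins are secreted proteins that loosen the plant cell wall at acid pH without cutting its polymers, and growing cells need this loosening to extend. Alpha-expansins act mainly where xyloglucan meets cellulose. Beta-expansins of grasses act on the arabinoxylan-rich wall and include the group 1 allergens of grass pollen. Expansin-like A proteins share the overall fold of the family, but no wall-loosening activity of theirs is established.

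The deposited values are signal intensities on a linear scale, already brought to a common level across arrays, and they allow no comparison of level between different probe sets. In bulk tissue, fewer cells of a type and less RNA per cell cannot be told apart. To be tested, a probe set had to exceed the array's own median in 2 or more of the 6 arrays, which 25 member probe sets of 23 genes did. Of these, 23 lay above the median in all 6 arrays, and 0 passed through the arrays of 1 group alone. Fold changes are on the log2(signal + 3.3) scale, and adjusted p-values are limma's with Benjamini-Hochberg adjustment over all 30366 tested probe sets.

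**Figure D1:**
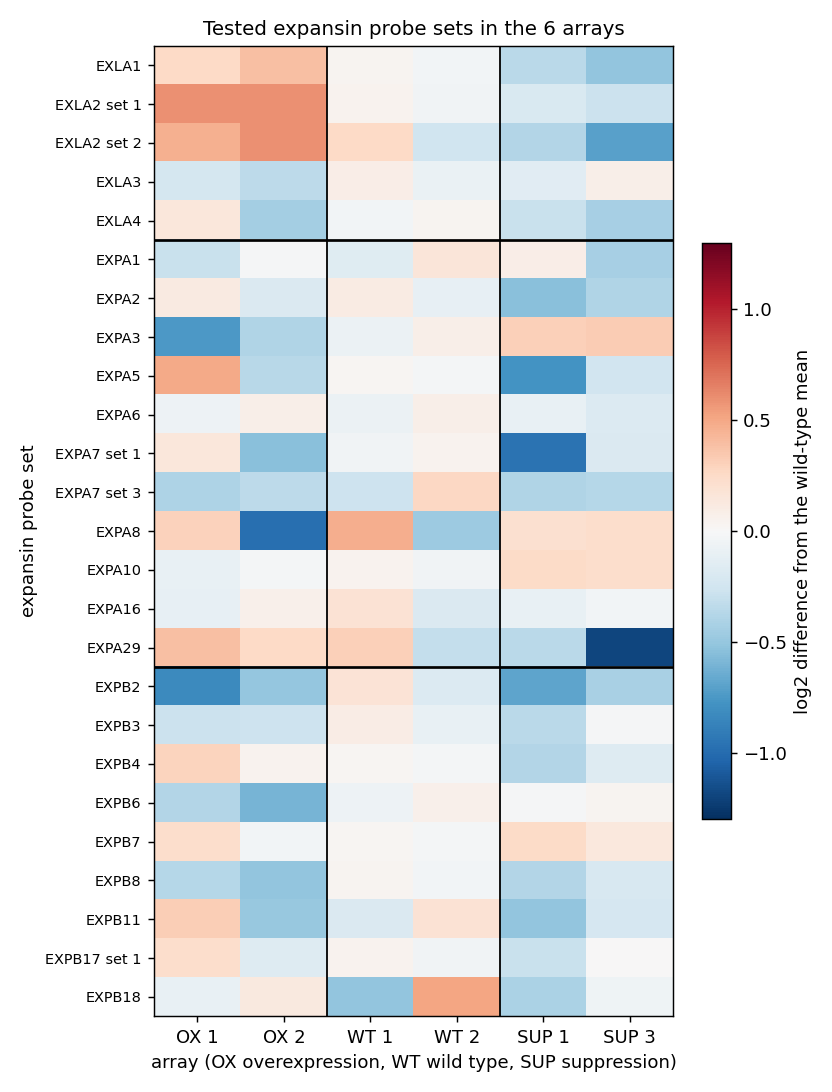
Log2 difference of each tested expansin probe set (rows, by subfamily) from its own wild-type mean in the 6 arrays (columns; OX overexpression, WT wild type, SUP suppression; numbers are the labels' replicates). EXLA1 and both EXLA2 probe sets are red in both overexpression arrays and blue in both suppression arrays, while EXPA5, EXPA7 set 1 and EXPA8 differ between arrays of the same group.

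The clearest differences lay between the transgenic lines. EXLA1 and EXLA2, of the expansin-like A subfamily, were higher in the overexpression line than in the suppression line, and the beta-expansin gene EXPB6 was lower. In all, 4 of the 25 tested member probe sets passed the threshold in this comparison, 3 higher (of 2 genes) and 1 lower, which is 16% of members against 6.56% of all tested probe sets. The corresponding shares over all probe sets were 3.63% higher and 2.93% lower. With so few members, these shares are given as a description.

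EXLA1 (LOC4331516) read 3064.5 and 3370.2 with overexpression, 2625 and 2505.6 in the wild type, and 2005.2 and 1792.6 with suppression. The groups did not overlap, with overexpression highest, wild type between and suppression lowest. The signal was 1.69-fold higher in overexpression than in suppression, a log2 fold change of 0.76 ± 0.10 (SE, n = 2 arrays each; limma adjusted p = 0.00725). Against the wild type the log2 fold change was 0.33 ± 0.10 in overexpression (adjusted p = 0.629) and -0.44 ± 0.10 in suppression (adjusted p = 0.0786), and neither passed the threshold.

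EXLA2 (LOC4349265) is represented by a pair of probe sets that share a target. The first read 492.9 and 491.8 in overexpression, 335.5 and 314.2 in the wild type, and 282.3 and 267.3 in suppression. Its overexpression arrays stood apart from the other 4, while the gap between wild type and suppression was small. The log2 fold change between the lines was 0.83 ± 0.15, a 1.78-fold difference (limma adjusted p = 0.0196). The second probe set, whose name suffix marks probes that may also bind other transcripts, read 485.9 and 534 in overexpression, 423.7 and 294.1 in the wild type, and 269.5 and 214.5 in suppression. It ran in the same order without overlap, but its wild-type arrays lay further apart. Between the lines it gave 1.07 ± 0.22, or 2.1-fold (limma adjusted p = 0.0269). With both probe sets averaged, EXLA2 gave 0.95 (limma adjusted p = 0.0194). Against the wild type the first probe set gave 0.60 ± 0.15 in overexpression and -0.24 ± 0.15 in suppression, and the second gave 0.52 ± 0.22 and -0.55 ± 0.22. The lowest adjusted p among these 4 estimates was 0.237.

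The other expansin-like A genes did not follow this order. EXLA3 (LOC4343213) read 422 and 391.6 in overexpression, 526.1 and 466.2 in the wild type, and 446 and 520.8 in suppression. Overexpression was lowest here, and the other groups overlapped (-0.24 ± 0.15 between the lines, limma adjusted p = 0.393). EXLA4 (LOC4342109) read 358.8 and 236.1 in overexpression, 315.5 and 330.5 in the wild type, and 262.8 and 239.1 in suppression. The overexpression arrays spanned the values of both other groups (0.21 ± 0.22 between the lines, limma adjusted p = 0.619).

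**Figure D2:**
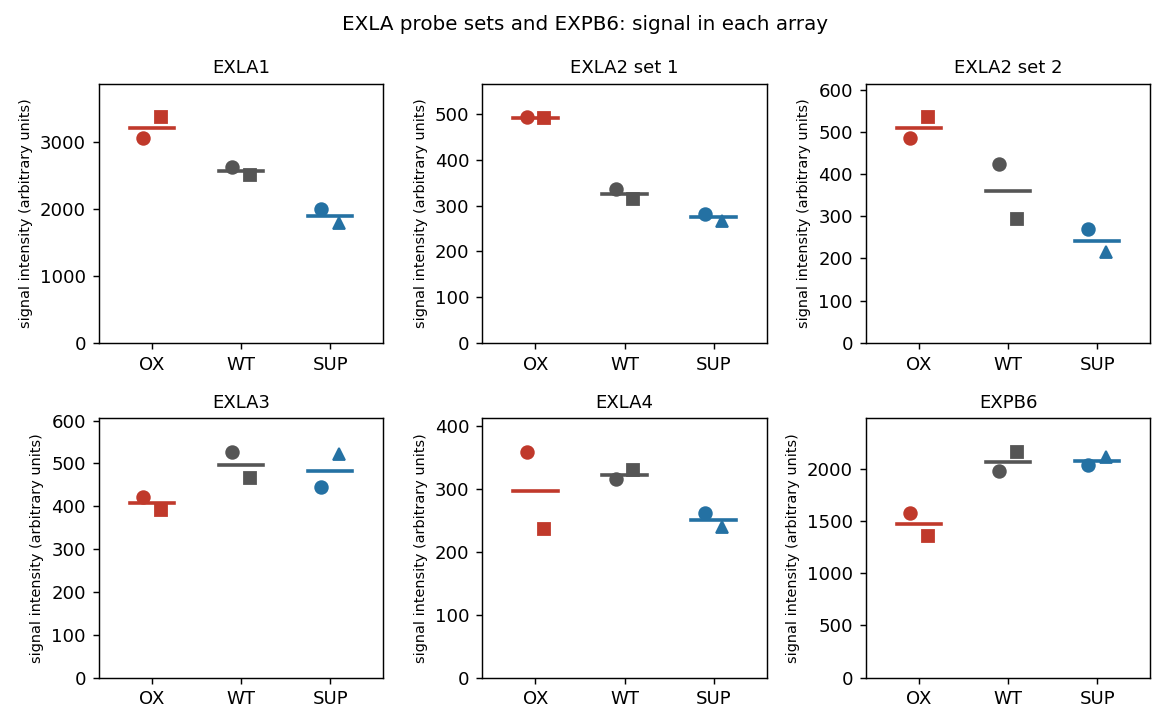
Signal intensity (arbitrary units, linear axis from 0) of the 5 EXLA probe sets and EXPB6 in each array; bars are group means, and circles, squares and triangles are replicates 1, 2 and 3. EXLA1 and EXLA2 step down from overexpression (OX) through wild type (WT) to suppression (SUP), whereas EXPB6 is low only in the overexpression arrays, at 1580.3 and 1355.3.

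EXPB6 (LOC4349347) read 1580.3 and 1355.3 in overexpression, 1974.3 and 2158.9 in the wild type, and 2039.5 and 2114.7 in suppression. Both overexpression arrays lay below the other 4, and wild type and suppression overlapped. It was 1.42-fold lower in overexpression than in suppression (log2 fold change -0.50 ± 0.11, limma adjusted p = 0.0405). Against the wild type the estimate was also -0.50 ± 0.11 in overexpression, with an unadjusted p of 0.00243 and an adjusted p of 0.45, and 0.01 ± 0.11 in suppression. The adjusted p differs at a like estimate because the adjustment depends on how many probe sets have a small p: 6.56% of all tested probe sets passed between the lines and 0.0494% for overexpression against wild type. No member passed in either line against the wild type (0 of 25 in each), where 0.0494% of all passed in overexpression and 2.3% in suppression. Unadjusted p-values under 0.05 were found for 5 members in overexpression and 6 in suppression, or 20% and 24% of members, where 7.11% and 17.8% of all tested probe sets had one. Both of these comparisons use the same 2 wild-type arrays.

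The calls between the lines were close to the limit of what 2 arrays a group allow. Without the variance trend in limma, none of the 4 probe sets passed, with adjusted p of 0.0904 for EXLA1, 0.066 and 0.115 for EXLA2, and 0.15 for EXPB6, while all 4 had an unadjusted p under 0.05. Arrays were also left out 1 at a time; the remaining array of that group is then assumed to vary like those of the other groups, from which the spread is estimated. In these fits EXLA1 lost its call only without overexpression replicate 2 (0.69, adjusted p = 0.0574). Both probe sets of EXLA2 lost theirs without any 1 transgenic array (adjusted p from 0.0595 to 0.142), and EXPB6 lost its own in each of the 6 such fits. Estimates over those fits ranged from 0.68 to 0.84 for EXLA1, from 0.80 to 0.87 and from 0.91 to 1.24 for the EXLA2 probe sets, and from -0.61 to -0.39 for EXPB6, with no change of sign. EXPB6 also missed the threshold with no filter on low values (adjusted p = 0.0604), with arrays scaled to a common median (adjusted p = 0.056) and with only the 2 lines in the fit (adjusted p = 0.0669).

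Measures of other kinds moved between the same arrays. The 3' to 5' signal ratio of the actin control probe sets was higher in overexpression, at 3.43 and 3.73, than in the wild type (2.86 and 2.75) or suppression (2.82 and 2.89); that of GAPDH lay between 1.66 and 2.19 throughout. One 18S rRNA control read 3673.9 and 3885.3 in suppression and from 4949.6 to 5450.5 elsewhere. All 5 measured root-preferred genes (Lsi1, Lsi2, AMT1-2, IRT1 and YSL15) had an unadjusted p under 0.05 between the lines, where 23.1% of all tested probe sets had one. Their summed signal was 4648.9 and 5758.4 in overexpression, 9604.6 and 6377.8 in the wild type, and 10281.4 and 7443.2 in suppression. Lsi1, a silicon transporter gene of roots, read at least 3662.3 in every array and made up most of each sum, so this sum mainly follows Lsi1. Shoots are named in some label fields and whole plants in others, and the share of root was not analysed here. Of the root-preferred genes, the ammonium transporter gene AMT1-2 was lower in overexpression than in suppression (-2.54, limma adjusted p = 0.00241). YSL15 (-1.61), Lsi2 (-1.07) and Lsi1 (-0.61) had estimates in the same direction that did not pass. Only the iron transporter gene IRT1 was higher (1.36, limma adjusted p = 0.0198), and the median of the 5 was -1.07. The summed signal of 9 leaf probe sets, of genes for Rubisco, chlorophyll binding, glycolate oxidase and chlorophyll synthesis, ranged from 97833.9 to 115555.3 with overlapping groups. The tested probe sets of CAB2R and the brightest of rbcS made up most of each sum, so it shows little of the dimmer ones. Of the 8 tested, 1 passed between the lines (CAO, 0.83, limma adjusted p = 0.0196). The 6 probe sets of genes matched by floral MADS names summed to 2517.7 at the lowest and 4318.4 at the highest, with overlapping groups. The name MADS2 matched both LOC4325001 and LOC4343851. LOC4343851 read from 1514.4 to 2969.2 and made up most of each sum, so the sum mainly follows that gene. Both prolamin probe sets, markers of seed storage tissue, summed to at most 33.8. The part of root share, RNA quality or rRNA signal in the expansin differences was not tested.

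The beta-expansin genes EXPB6, EXPB2, EXPB3 and EXPB4 follow each other in the gene table of assembly ASM3414082v1 with no other protein-coding gene between them. In overexpression, EXPB6, EXPB2 and EXPB3 lay below the wild type without overlap and EXPB4 above it. In suppression, EXPB2 and EXPB4 lay below it, while EXPB6 and EXPB3 overlapped it. None of these differences passed the threshold, and whether the genes move together was not tested. EXPB2 (LOC4349348) read 370.5 and 464.6 in overexpression, 747.4 and 586 in the wild type, and 411.2 and 494.8 in suppression. Both lines lay below the wild type, by -0.67 ± 0.19 in overexpression (limma adjusted p = 0.574) and -0.55 ± 0.19 in suppression (limma adjusted p = 0.186), and neither estimate passed. EXPB3 (LOC4349349) read 6555.3 and 6608.9 in overexpression, 8493.3 and 7449.7 in the wild type, and 6243.2 and 7885.8 in suppression. Its overexpression arrays lay below the wild type (-0.27 ± 0.12, limma adjusted p = 0.704), while those of suppression overlapped it. EXPB4 (LOC4349350) read 3424.4 and 2907.3 in overexpression, 2850.8 and 2763.3 in the wild type, and 2157.8 and 2499.3 in suppression. This is the order seen for EXLA1, but the difference between the lines did not pass (0.44 ± 0.12, limma adjusted p = 0.065). Its probe set suffix marks probes shared by several transcripts. EXPB3, EXPB4 and EXPB6 have been described in growing internodes of deepwater rice.

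**Figure D3:**
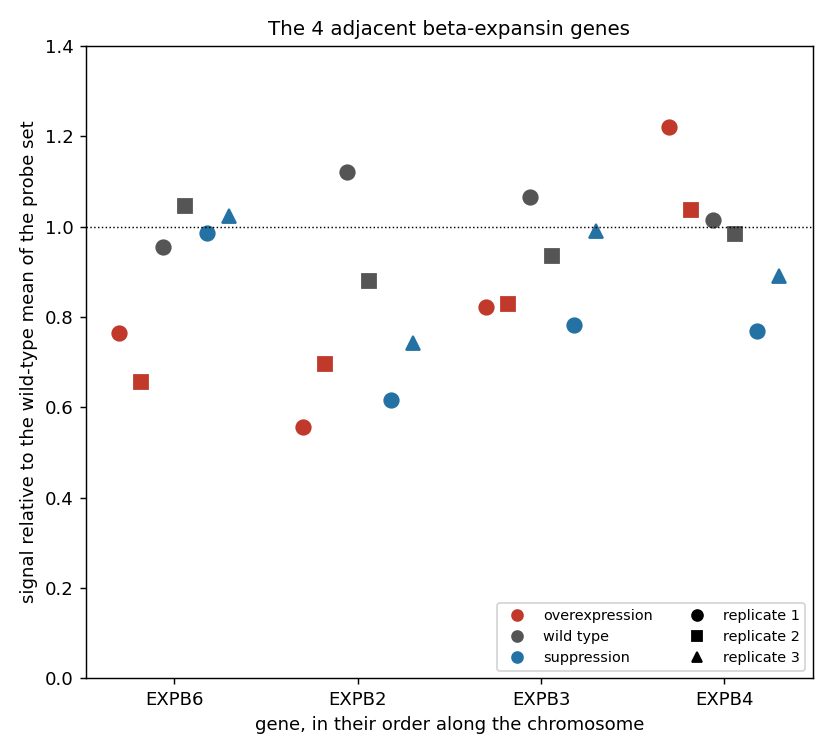
Signal of EXPB6, EXPB2, EXPB3 and EXPB4, 4 neighbouring genes, in each array relative to the wild-type mean of the same probe set (linear axis from 0, dotted line at the wild-type mean; colours are groups, symbols replicates). EXPB6 is low in overexpression alone, EXPB2 in both lines, and EXPB4 is highest in overexpression and lowest in suppression.

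Among the remaining beta-expansins, the neighbours EXPB7 and EXPB8 had estimates of opposite sign against the wild type, and none passed. Between the lines both were slightly below 0 (-0.10 ± 0.13 and -0.15 ± 0.20), and whether the genes differ from each other was not tested. EXPB8 (LOC4331298) read 190.2 and 171.8 in overexpression, 253 and 240.9 in the wild type, and 189.5 and 212.6 in suppression, with both lines below the wild type (-0.44 ± 0.20 and -0.29 ± 0.20, limma adjusted p = 0.704 and 0.485). EXPB7 (LOC4331300) read 1082.4 and 902 in overexpression, 939.8 and 907.2 in the wild type, and 1096.8 and 1019.3 in suppression, so its suppression arrays lay above the wild type (0.19 ± 0.13, limma adjusted p = 0.489). EXPB11, EXPB17 and EXPB18 had estimates from -0.37 to 0.28 over the 3 comparisons, and 0 passed. EXPB11 differed within overexpression, at 1907 and 1088.4, by more than between the group means.

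No alpha-expansin passed in any comparison (0 of 11 tested probe sets), and 0, 2 and 4 had an unadjusted p under 0.05 for overexpression against wild type, suppression against wild type and overexpression against suppression. These are 0%, 18.2% and 36.4% of them, where 7.11%, 17.8% and 23.1% of all tested probe sets had one. EXPA2 (LOC4327568), first cloned from rice internodes with EXPA3, read 2713.1 and 2197.8 in overexpression, 2703.8 and 2324 in the wild type, and 1723.4 and 1915.2 in suppression. Its suppression arrays lay below the other 4, with -0.46 ± 0.14 against the wild type (limma adjusted p = 0.129) and 0.43 ± 0.14 between the lines (limma adjusted p = 0.104). EXPA10 (LOC4336776), known in rice roots as aluminium-inducible, ran the other way, with 1743.9 and 1722.6 in suppression, 1511.5 and 1423.6 in the wild type, and 1376.5 and 1441.9 in overexpression. Its suppression arrays were the highest, at 0.24 ± 0.10 against the wild type (limma adjusted p = 0.273).

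EXPA3 (LOC4338278) was the only member with suppression above wild type above overexpression and no overlap. It read 134.3 and 136.3, 102.1 and 113.7, and 63.1 and 81.5 in these groups, values near the array medians of 58.6 to 66.2. The difference between the lines was -0.89 ± 0.30 (limma adjusted p = 0.122). EXPA29 (LOC4342086) had the largest estimate of any tested member, 1.10 ± 0.35 between the lines (limma adjusted p = 0.106). It read 198.7 and 181.1 in overexpression, 187.1 and 120.7 in the wild type, and 117 and 64.1 in suppression. The value of 64.1 was close to the median of its array, 58.6. Replicates differed by 1.55 times in the wild type and 1.83 times in suppression, but by only 1.1 times in overexpression.

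Several alpha-expansins varied more within a group than between groups. EXPA5 (LOC4330706) read 3618.4 and 1991.5 in overexpression, 2608.8 and 2525.2 in the wild type, and 1493.2 and 2156 in suppression. EXPA7 (LOC4334606), in its bright probe set, read 3663.5 and 2272.9, 3211.2 and 3418.5, and 1706.5 and 2910.5 in the same order of groups. In both genes overexpression replicate 1 was the highest array and suppression replicate 1 the lowest. EXPA8 (LOC4327217), a root expansin, read 108.3 and 42.8 in overexpression, 122.7 and 62.4 in the wild type, and 101.9 and 103.3 in suppression. Replicates of EXPA8 differed by 2.53 times within overexpression and 1.97 times in the wild type, with overlapping groups. A dimmer probe set of EXPA7 read from 97.2 to 157, at -0.37 ± 0.30 in overexpression and -0.38 ± 0.30 in suppression against the wild type. The bright one gave -0.20 ± 0.27 and -0.57 ± 0.27, so the estimates of both were below 0 in both lines. In overexpression, however, the arrays of the bright one lay on either side of the wild type. Replicates of the dimmer one differed by 1.05 times within overexpression and 1.01 times within suppression, where those of the bright one differed by 1.61 and 1.71 times. EXPA1, EXPA6 and EXPA16 had estimates from -0.17 to 0.14 over the 3 comparisons.

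**Figure D4:**
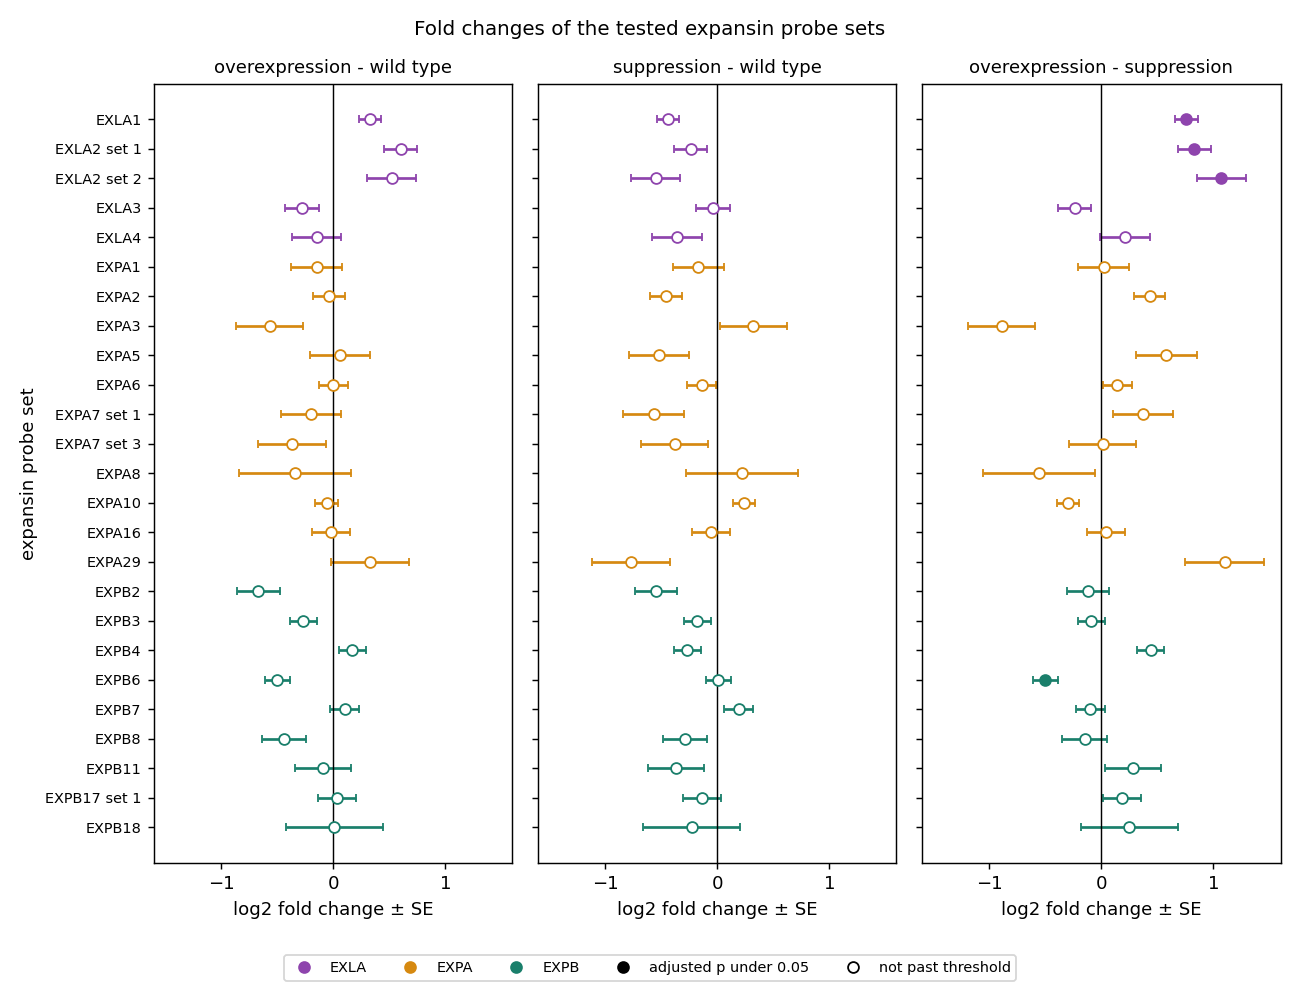
Log2 fold changes (points) with standard errors (bars) of the 25 tested expansin probe sets in the 3 comparisons, coloured by subfamily; filled points have a limma adjusted p under 0.05. Filled points appear only between the lines, for EXLA1 (0.76), EXLA2 (0.83 and 1.07) and EXPB6 (-0.50), while in suppression against wild type most points lie left of 0.

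By subfamily, the median log2 fold change between the lines was 0.76 for the 5 EXLA probe sets, 0.04 for the 11 EXPA and -0.09 for the 9 EXPB, where all tested probe sets had a median of 0.01. The EXLA median rests on EXLA1 and EXLA2: with 1 value for each gene it was 0.49. In overexpression against wild type the medians were 0.33, -0.06 and -0.09 (EXLA, EXPA, EXPB), beside -0.01 for all tested probe sets, and the EXLA median became 0.09 with 1 value for each gene. In suppression against wild type they were -0.36, -0.17 and -0.23, beside -0.02. In that comparison 20 of the 25 members had an estimate below 0, or 80%, where 52% of all tested probe sets did, and 14, or 56%, lay below the wild type with no overlap, where 25.5% of all did. These 20 comprised all 5 EXLA, 8 of 11 EXPA and 7 of 9 EXPB probe sets, and none passed the threshold singly. The 8 tested leaf probe sets had a median of -0.32 in this comparison, but they did not move alike. CAO passed (-0.77, limma adjusted p = 0.044), and a pair for rbcS gave -0.51 each (adjusted p = 0.0691 and 0.0738). A further and brighter probe set of rbcS gave 0.05, those of CAB2R gave -0.07 and -0.00, and those of GLO1 gave -0.23 and -0.41. The 4 tested floral probe sets, that of LOC4343851 at -0.41 among them, had a median of -0.38 and the 5 root probe sets one of 0.18, with 0 calls. The part of tissue makeup in the expansin estimates was not tested. All of these estimates come from the same 2 suppression and 2 wild-type arrays, so the members are not independent of each other.

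Ordered without overlap as overexpression, wild type, suppression from high to low were 4 member probe sets of 3 genes (EXLA1, EXLA2 and EXPB4), or 16%, where 5.12% of all tested probe sets were. The opposite order was shown by EXPA3 alone, or 4%, where 4.6% of all were. Without regard to direction, 44% of members did not overlap between overexpression and wild type, 68% between suppression and wild type and 44% between the lines, where 38.1%, 48.7% and 53.5% of all tested probe sets did not.

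The 8 member probe sets left untested lay between 1.3 and 67.9 in every array. They were those of EXPA4, EXPA26, EXPA31, EXPA32, EXPB9 and EXPB10 and additional ones of EXPA7 and EXPB17. EXPB9 and EXPB10 belong to the pollen group of beta-expansins. EXPA32 read from 1.3 to 2.6 in all 6 arrays, and EXPA4, a submergence- and gibberellin-inducible gene of rice stems, read 23.2 in overexpression replicate 1 and at most 6.3 in the other 5.

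Other wall genes gave calls in the suppression line and between the lines, whereas 0 of the 70 tested probe sets below passed for overexpression against wild type (7 had an unadjusted p under 0.05, where 7.11% of all tested probe sets did). The counts of calls below stand beside 3.63% higher and 2.93% lower of all tested probe sets between the lines, and 2.3% in either direction for suppression against wild type. Among 13 probe sets of 9 cellulose synthase genes, which build the microfibrils that alpha-expansins act on, 3 were lower in overexpression than in suppression and 0 higher. These were CESA6 (-0.83, limma adjusted p = 0.00579), CESA1 (-0.61, 0.00667) and CESA3 (-0.38, 0.0401). CESA6 read 4116.2 and 3436.1 in overexpression, 4445.3 and 4421.5 in the wild type, and 6359.2 and 7013.9 in suppression. The order of its groups was thus the reverse of that of EXLA1. A further probe set of CESA1 gave -0.66 (adjusted p = 0.256) and one of CESA3 gave 0.09 (adjusted p = 0.512). The list's median between the lines was -0.38, and 2 of its members, CESA1 and CESA6, rose against the wild type in suppression (0.50 and 0.59, limma adjusted p = 0.023 and 0.0339). The further probe set of CESA1 went the other way there, at -0.15 (adjusted p = 0.847), with 684 and 333.4 in suppression on either side of the wild type at 536.9 and 526.3.

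Among 20 tested probe sets of cellulose synthase-like genes, some of which make hemicelluloses, 2 were higher and 3 lower in overexpression than in suppression, with a median of -0.25. CSLC7 (-0.69), CSLC9 (-0.63) and CSLF6 (-0.48), the last a synthase of mixed-linkage glucan, were lower, and CSLA5 (0.76) and CSLE2 (0.70) higher, with limma adjusted p from 0.0198 to 0.0474. Other probe sets of CSLE2 gave 0.14 and -0.03. Of 23 probe sets of lignin synthesis genes, 3 were higher and 1 lower between the lines, with a median of -0.09. LAC7 (1.24), PAL06 (1.08) and CAD8C (0.49) were higher and CAD3 (-0.75) lower, with limma adjusted p from 0.00428 to 0.0245. A further probe set of PAL06 gave 0.48 and did not pass (adjusted p = 0.28). Against the wild type, 3 of the lignin genes passed in suppression: CAD3 was higher (0.89, limma adjusted p = 0.00552), and LAC7 (-0.99, 0.0173) and CAD8C (-0.49, 0.042) were lower. None of 13 probe sets of endoglucanases, which cut wall glucans, passed in any comparison, with 1, 3 and 2 at an unadjusted p under 0.05 for overexpression against wild type, suppression against wild type and between the lines, where 7.11%, 17.8% and 23.1% of all tested probe sets had one. The single xyloglucan endotransglucosylase gene with a matching name, XTH8, which cuts and rejoins xyloglucan, read from 5360.1 to 6935.9 with estimates from -0.04 to 0.17.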

How the data were processed

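RNA of 6 samples was measured on 1-colour Affymetrix rice arrays from 6 µg of total RNA each, per the labels' protocols. The authors deposited linear signal intensity, 1 value for each of 57381 probe sets. Which software summarised the probes is not stated in the labels. After trimming, every array had a mean of 500.06, so values are relative to the rest of their array.

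Tests used log2(signal + 3.3), the added 3.3 being the 10th percentile over the whole table. The 123 control probe sets were left out. Probe sets with at least 2 of 6 arrays above their own median (30366) entered limma 3.58.1 (R 4.3.3; lmFit, then eBayes with a variance trend) over all 3 groups, with 3 residual degrees of freedom and 5.2 from the prior. All tests were two-sided with a threshold of 0.05 after Benjamini-Hochberg adjustment. The fit was tested on simulated data.

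Gene names came from the platform's probe annotation and from the gene table of assembly ASM3414082v1, which was used for names and neighbours only. Exactly 1 gene was given for 22436 probe sets, several for 95, and 0 of those 95 named an expansin. Members with a pair of probe sets or more are numbered as set 1, 2 and 3. The members and lists were chosen with earlier results of these data known. Values in every array are given for the called members, the 4 of smallest p in each direction of each comparison and the EXLA genes; EXPA5, EXPA7, EXPA29, EXPB11 and the untested members were added after their values were seen. A proton pump list had no member. Alternatives were other pseudocounts (16 and 1), filters, scalings, an untrended eBayes, fits of 2 groups, 1 value for each gene, a replicate block, and leaving out each array.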

Additional observations from a re-analysis of the deposited data

How the results depend on the processing

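With 2 arrays a group, calls near the threshold depended on the setting. Single members were followed under the alternatives for the called ones, the 4 of smallest p in each direction of each comparison and the EXLA genes. EXPA1, EXPA5, EXPA6, EXPA7, EXPA16, EXPA29, EXPB11, EXPB17 and EXPB18 were not among them. Of the 687 values of the members followed, 22 lost their call, 0 gained one and 0 of the called ones changed sign. Among uncalled estimates 18 values of 12 results changed sign, those of EXLA3, EXLA4, EXPA2, EXPA8, EXPB2, EXPB3 and EXPB7 and that of EXPB6 for suppression against wild type. The 4 expansin calls between the lines became 0 without the variance trend and 0 to 3 with 1 array left out. Over all probe sets, calls between the lines fell from 1992 to 69 without the trend, to 1255 with no filter, and to 463 without overexpression replicate 2. Against the wild type the expansin count stayed at 0 under every alternative run. In the limma fit reported above, 5 and 6 members had an unadjusted p under 0.05 in overexpression and suppression. These are 20% and 24% of members, where 7.11% and 17.8% of all tested probe sets had one. The other lists, auxin and gibberellin genes included, had 13 calls between the lines, which became 0 without the trend, 8 with only the 2 lines in the fit and 4 to 8 with 1 array left out. Their 5 calls in suppression against wild type became 2 with no filter, 1 without the trend and 1 to 4 with 1 array left out. The cause was not tested.

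Subfamily medians of log2 fold change moved as follows. The EXPA median was -0.10 with no filter for overexpression against wild type. For suppression against wild type it was -0.28 with the stricter filter and -0.10 with common median scaling. Between the lines it was 0.09 with no filter, with the stricter filter and with 1 value for each gene, and -0.01 with common median scaling. The EXPB median between the lines was 0.04 with no filter. The EXLA median with 1 value for each gene was 0.09 for overexpression against wild type and 0.49 between the lines. With 1 array left out, EXLA ranged from 0.68 to 0.84 between the lines, EXPA from -0.19 to -0.02 (overexpression against wild type), from -0.33 to -0.09 (suppression against wild type) and from 0.01 to 0.13 (between the lines), and EXPB from -0.27 to -0.02, from -0.38 to -0.06 and from -0.09 to 0.08.

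The overexpression and wild-type arrays share replicate numbers 1 and 2, but deviations of same-numbered arrays from their group means had a correlation of -0.015 over tested probe sets, so the numbers were not taken as pairs. With the replicate block, 0 expansins passed, as without it, and 9 probe sets in place of 15 passed over the whole array. Neither depth nor detection calls were given, so dim members have no stated limit of detection.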

Other observations

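Genes of the auxin and gibberellin pathways, which are linked to cell elongation, were measured on the same arrays. Over all tested probe sets, 6.56% passed between the lines, 2.3% for suppression and 0.0494% for overexpression against wild type, and an unadjusted p under 0.05 was found for 23.1%, 17.8% and 7.11%. Of 27 tested probe sets of Aux/IAA repressor genes, 1 passed between the lines, that of IAA1 (LOC4323871), an early auxin-response gene, and 0 passed against the wild type in either line (3 and 3 with an unadjusted p under 0.05 by limma). This probe set of IAA1 read 4268.8 and 3981 in overexpression, 2976.2 and 3225.9 in the wild type, and 2568.4 and 2320.7 in suppression. Its groups did not overlap and stood in the order found for EXLA1. The log2 fold change between the lines was 0.75 ± 0.10 (limma adjusted p = 0.00634). A further probe set of this gene read 107 and 147.5 in overexpression, 105.4 and 118 in the wild type, and 67.9 and 59.8 in suppression. There overexpression and wild type overlapped, and the difference between the lines did not pass (0.94, limma adjusted p = 0.123). Of 19 tested probe sets of auxin response factor genes, 0 passed in any comparison by limma, and 1, 0 and 3 had an unadjusted p under 0.05 for overexpression against wild type, suppression against wild type and overexpression against suppression. Of 4 tested probe sets of gibberellin genes, 0 passed by limma, and the receptor gene GID1 alone had an unadjusted p under 0.05 (0.0261, suppression against wild type). GID1 read 2849.3 and 2425 in overexpression, 2824.7 and 2692 in the wild type, and 2347.8 and 2110.9 in suppression.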
